A study of Homo sapiens with 4 samples.

Results

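The MYC network is a family of 10 genes here, MYC, MYCN, MYCL, MAX, MNT, MLX, MGA, MXD1, MXD3 and MXD4, taken from a fixed list of symbols, out of 19974 protein-coding genes in the RefSeq annotation of GRCh38. These genes were chosen with earlier results of these data known. They were followed across the BRD8 chromatin immunoprecipitation sequencing (ChIP-seq) peaks of the established human cell lines HCT116 and SW480, which both derive from colorectal cancer and for which the labels name no treatment. BRD8 is a bromodomain protein of TIP60/NuA4, a complex that acetylates histones. Each line gave 1 ChIP library, made with a polyclonal BRD8 antibody from chromatin fixed for 10 minutes in 1% formaldehyde and cut by micrococcal nuclease, and 1 input library, which was not analysed here on its own. Because a line has a single ChIP library, differences between them could not be checked in replicates, no p-value is given, and intervals cover counting error only.

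MYC proteins are basic helix-loop-helix leucine zipper transcription factors that bind DNA as dimers with MAX, above all at the E-box CACGTG, and activate growth and biosynthesis genes. MXD proteins and MNT compete for MAX and recruit SIN3 histone deacetylase corepressors to the same sites. MGA pairs with MAX inside a Polycomb repressive complex, and MLX is the MAX-like partner of the MondoA and ChREBP glucose sensors. In colorectal cancer MYC is known as a target of Wnt signalling, and the MYC protein binds TRRAP, a scaffold of the complex that BRD8 belongs to.

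A region was assigned to a gene when its summit lay inside the gene or within 1 kb of either end. The deposited lists hold 22303 regions in HCT116 and 12874 in SW480 on chromosomes 1 to 22 and X. Their fold is the authors' own ratio of ChIP signal to local background, so folds were ranked within a list. Where folds of the lines are compared, their ratio is set beside that of all genes with a region in both lines. For each summit the pileup, in overlapping ChIP fragments, and the local background, in fragments expected there, were recovered from the deposited fold and p. HCT116 summits started at a pileup of 12 fragments and a background of 3.75, and SW480 summits at 13 and 4.09. A peak list holds no expression values, so the identity of the lines was taken from the labels.

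BRD8 was listed at the same 7 of the 10 genes in both lines: MYC, MAX, MNT, MLX, MGA, MXD1 and MXD3. The share of all protein-coding genes with a region under the same rule was 52.3% in HCT116 and 29.8% in SW480, and 26.7% of them had one in both lines. MYCN, MYCL and MXD4 had none in either line, as did 44.6% of protein-coding genes. The shared set was not stable to the settings. At a −log10 q of at least 5, HCT116 kept 6 genes and lost MYC, beside 43.2% of coding genes. SW480 then kept 6 and lost MLX, beside 19.0%. With a margin of 0.5 kb HCT116 kept 7, beside 50.2%, and SW480 kept 5, without MAX and MXD1, beside 28.1%. Under the main rule the 7 genes carried 17 regions in HCT116 and 11 in SW480. Under the narrower rule of a summit within 1 kb of either gene end, 6 members had a region in HCT116 (44.0% of all protein-coding genes) and 7 in SW480 (22.1%). With a margin of 0.5 kb the counts were 2 in HCT116, where 34.9% of all coding genes had such a region, and 4 in SW480 (17.0%), so the HCT116 share of members then lay below that of all genes. The median of the highest gene-end fold was 5.57 over the 6 HCT116 members, against 4.87 over all HCT116 genes with such a region. It was 3.79 over the 7 SW480 members and 3.40 over all such SW480 genes.

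Long genes take more regions, so the counts were also read by gene length. Of the 5 members under 10 kb, 3 had a region in each line, where 37.2% of coding genes of that length had one in HCT116 and 17.1% in SW480. Of the 3 members of 10 to 50 kb, 2 had one in each line, beside 57.1% and 31.2% of such genes. Both members of 50 kb or more, MAX and MGA, had one in each line, beside 59.9% and 39.3%.

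The promoters that the results turn on are shown first, from RefSeq on GRCh38.p14, each running 5′ to 3′ from 250 bases before an annotated start to 50 bases after it. The table held 12 such windows for 9 members. MGA is shown at 2 of its 3 annotated starts, because each line had a region listed at a different one, and MXD3 because it had the strongest network region in HCT116. In these the capitals mark the first 10 bases from the annotated start.
MGA upstream start, chr15:41620974-41621273, plus strand: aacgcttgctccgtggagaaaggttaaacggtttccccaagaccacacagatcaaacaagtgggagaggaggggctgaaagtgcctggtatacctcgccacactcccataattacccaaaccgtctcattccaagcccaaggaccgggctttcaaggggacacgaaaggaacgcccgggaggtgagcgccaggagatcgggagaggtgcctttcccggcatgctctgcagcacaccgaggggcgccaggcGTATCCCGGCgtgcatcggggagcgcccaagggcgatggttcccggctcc
MGA internal start, chr15:41660497-41660796, plus strand: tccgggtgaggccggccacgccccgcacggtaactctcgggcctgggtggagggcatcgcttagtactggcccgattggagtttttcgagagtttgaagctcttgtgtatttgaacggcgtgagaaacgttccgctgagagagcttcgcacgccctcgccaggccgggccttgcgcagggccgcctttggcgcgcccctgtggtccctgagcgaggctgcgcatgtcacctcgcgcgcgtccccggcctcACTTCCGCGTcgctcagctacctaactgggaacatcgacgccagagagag
MXD3, chr5:177312703-177313002, minus strand: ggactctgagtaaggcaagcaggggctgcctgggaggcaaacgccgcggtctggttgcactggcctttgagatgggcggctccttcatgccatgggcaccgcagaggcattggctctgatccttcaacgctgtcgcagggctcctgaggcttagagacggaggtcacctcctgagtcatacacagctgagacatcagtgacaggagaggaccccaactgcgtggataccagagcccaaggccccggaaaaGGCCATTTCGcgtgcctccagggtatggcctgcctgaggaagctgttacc

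MNT, MLX and MXD4 are shown because they were the 3 members with the E-box letters CACGTG, the site that network dimers themselves bind, which are in capitals here. MNT and MLX had a listed BRD8 region, and MXD4 had none.
MNT, chr17:2401011-2401310, minus strand: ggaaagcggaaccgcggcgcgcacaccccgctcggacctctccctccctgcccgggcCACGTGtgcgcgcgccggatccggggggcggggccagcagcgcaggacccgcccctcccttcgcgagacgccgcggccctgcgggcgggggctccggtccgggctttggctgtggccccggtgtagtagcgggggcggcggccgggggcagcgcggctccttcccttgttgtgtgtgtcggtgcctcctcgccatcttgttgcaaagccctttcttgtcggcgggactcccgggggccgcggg
MLX, chr17:42566850-42567149, plus strand: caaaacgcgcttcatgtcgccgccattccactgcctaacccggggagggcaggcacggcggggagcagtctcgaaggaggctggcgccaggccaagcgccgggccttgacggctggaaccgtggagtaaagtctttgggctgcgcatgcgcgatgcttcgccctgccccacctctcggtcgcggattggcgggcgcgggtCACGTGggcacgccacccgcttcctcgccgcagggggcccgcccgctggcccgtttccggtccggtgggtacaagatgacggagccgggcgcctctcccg
MXD4, chr4:2262060-2262359, minus strand: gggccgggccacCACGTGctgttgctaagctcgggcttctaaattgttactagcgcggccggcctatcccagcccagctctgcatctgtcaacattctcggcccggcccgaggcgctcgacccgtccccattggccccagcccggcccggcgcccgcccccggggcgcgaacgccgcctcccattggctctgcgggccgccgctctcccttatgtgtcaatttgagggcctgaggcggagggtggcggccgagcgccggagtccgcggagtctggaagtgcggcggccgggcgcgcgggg
CACGTG reads the same on both strands. It was in 3 of the 12 member windows and in 7.25% of the 35097 promoter windows in the table. It began 193 bases before the start in MNT, 50 in MLX and 238 in MXD4. Those windows were rich in G and C, at 76.0% in MNT, 71.0% in MLX and 72.3% in MXD4, against a median of 58.7% over all windows. The broader letters CANNTG, which include CACGTG, were in 9 of the 12 member windows and in 68.7% of all windows. A match describes letters only.

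MYC, the oncogenic activator of the network, is on chromosome 8 (127735434 to 127742951) and is read towards higher coordinates. HCT116 had 5 regions within its 7518 bp and SW480 had 2, as the map of regions along the genes shows. Their summit pileups were 30, 24, 24, 26 and 27 fragments in HCT116, in order along the gene, and 148 and 76 in SW480. Both SW480 pileups stood above all 5 HCT116 ones, in raw fragments of 1 library per line. The part of the listing threshold in this gap was not tested. Both SW480 regions had a background of 40 or more, where the lowest pileup that list holds was 71 fragments.

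The local background at MYC was also far apart. It was 9.55, 8.96, 10.9, 9.18 and 9.18 fragments at the HCT116 summits and 51.7 and 42.9 at the SW480 summits. These are 2.39 to 2.91 times the lowest background of the HCT116 list, and 12.7 and 10.5 times that of the SW480 list. In the SW480 list of 12874 regions, 15 had a background of 40 or more, and both MYC regions were among them, at ranks 7 and 9.

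With pileup and background both higher in SW480, the fold at MYC was nearly the same: 2.94 in HCT116 and 2.83 in SW480 at the region near the gene's start. The HCT116 summit there lay 664 bp inside the gene (127735521 to 127736174, −log10 q 4.80) and the SW480 summit 248 bp inside it (127735551 to 127735826, −log10 q 22.9). By −log10 q the SW480 region ranked 384 in its list, and the HCT116 region ranked 12633. By fold the ranks were 18327 in HCT116 and 9769 in SW480, low in both lists. MYC therefore stood high in SW480 by the size and significance of its pileup and low by its enrichment over the surrounding background.

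A second pair of overlapping regions lay near the 3′ end of MYC. The HCT116 summit was 736 bp from that end with a fold of 2.75, and the SW480 summit 483 bp from it with a fold of 1.75. The 3 HCT116 regions between them had folds of 2.51, 2.10 and 2.65 and overlapped no SW480 region. Of 5658 coding genes under 10 kb, 13 had at least 5 regions in HCT116 (0.23%). At SW480 backgrounds of 40 or more, the lowest pileup listed was 71 fragments, well above the 13 at which that list starts.

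The stretch around MYC had many regions in SW480. Within 1 Mb of the gene, its own regions left out, there were 47 regions in HCT116 and 226 in SW480. Background there had a median of 6.88 in HCT116 and 12.4 in SW480. On the rest of the chromosome the median was 6.44 over 1037 HCT116 regions and 6.12 over 365 SW480 regions. The part of this local background in the MYC pileup was not tested.

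MYCN and MYCL, the paralogs that drive neuroblastoma and small cell lung cancer, carried no region. The nearest summits to MYCN on chromosome 2 were 348969 bp away in HCT116 and 348922 bp away in SW480, in both lines at DDX1, an RNA helicase gene. The nearest summits to MYCL on chromosome 1 were 12058 bp away in HCT116 and 12103 bp away in SW480, at TRIT1, a tRNA-modifying enzyme gene, with folds of 6.43 and 4.75. Absence from a list ends at its q threshold of 0.05 and does not show absence of BRD8.

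**Figure D1:**
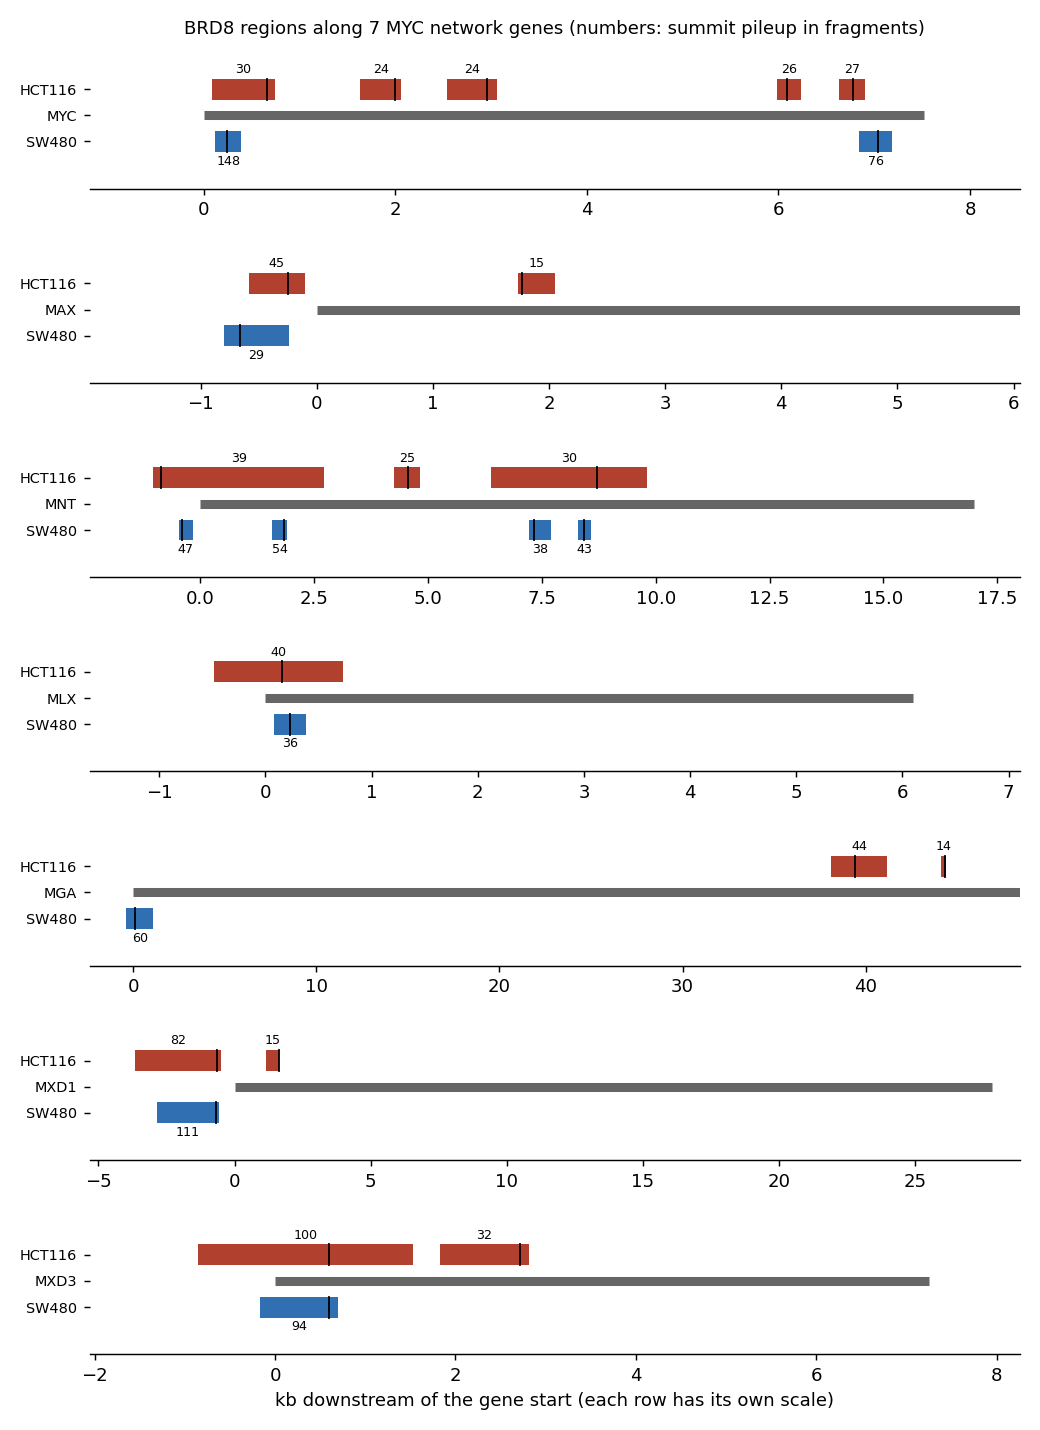
Position of every BRD8 region along the 7 network genes that had one, as kb downstream of the gene start, with HCT116 regions above and SW480 regions below the gene (grey); black ticks are summits and numbers are summit pileups in fragments. MYC has 5 HCT116 and 2 SW480 regions, and at MGA the SW480 region is at the start while the HCT116 regions lie inside the gene.

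MAX, the common partner that MYC, MXD, MNT and MGA proteins all need, had a region beyond its 5′ end in both lines. The HCT116 summit lay 243 bp outside the gene on chromosome 14 (65102799 to 65103280), with 45 fragments over a background of 7.46 and a fold of 5.44. The SW480 summit lay 663 bp outside it (65102933 to 65103493), with 29 fragments over 6.92 and a fold of 3.79. The regions overlapped. MAX was the 1 member of the 7 whose strongest region had a higher background in HCT116 than in SW480.

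Measured from the nearest of its 2 annotated starts, the MAX summit was 655 bp upstream in HCT116 and 1075 bp upstream in SW480. A second HCT116 region inside the gene had 15 fragments and a fold of 3.15 and overlapped nothing in SW480.

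MGA, the large MAX partner that recruits Polycomb proteins, was the member with different sites in the lines. HCT116 had a wide region of 3097 bp inside the gene on chromosome 15 (41659323 to 41662419), with 44 fragments over a background of 4.78, a fold of 7.79 and 23.8 as −log10 q. It covered both internal start windows in full, and its summit was 103 bp upstream of the internal start shown above. SW480 had a region of 1481 bp at the upstream start (41620830 to 41622310), with 60 fragments over 8.21, a fold of 6.63 and 26.7 as −log10 q, and its summit was 104 bp downstream of that start.

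No region of the other line overlapped either of these MGA regions. The nearest SW480 summit to the HCT116 site was the one at the upstream start, 39316 bp away. A smaller HCT116 region inside the gene had 14 fragments and a fold of 2.99. A gene-end region in SW480 alone was found at 1.81% of protein-coding genes, and MGA was the 1 such member. The SW480 summit also lies within 1 kb of the long noncoding RNA gene LOC105370791. In SW480 the MGA fold was the highest of the network, at rank 212 of the list.

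MNT, a MAX partner and repressor expressed in most tissues, had several regions in both lines. In HCT116 the pileups were 39, 25 and 30 fragments, going from the 5′ end into the gene on chromosome 17, and in SW480 they were 47, 54, 38 and 43. The outer 2 HCT116 regions were 3742 and 3419 bp wide, within the widest 1.10% and 1.58% of the list, and each overlapped 2 of the SW480 regions, which were 286 to 497 bp wide. The same stretches of MNT were thus listed in both lines, as wide regions in HCT116 and as pairs of narrow ones in SW480.

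Folds at MNT were 5.39, 2.30 and 5.05 in HCT116 and 2.89, 3.37, 2.60 and 3.01 in SW480. The backgrounds were 6.43, 10.3 and 5.14 in HCT116 and from 13.6 to 15.6 in SW480. Of coding genes of 10 to 50 kb, 0.782% had 4 or more regions in SW480. The promoter CACGTG shown above lay inside the first HCT116 region and inside the SW480 region next to the start, whose summits were 857 bp and 391 bp upstream of the start.

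MLX, the partner of the glucose-sensing factors, had 1 region in each line, at its start on chromosome 17. The HCT116 region (42566616 to 42567829) had 40 fragments over a background of 6.19 and a fold of 5.70, and the SW480 region (42567177 to 42567485) had 36 over 12.4 and a fold of 2.76. The summits lay 154 bp and 232 bp inside the gene. Pileups were close, and the fold difference went with the background. The HCT116 region held the MLX promoter CACGTG and the SW480 region, which begins further downstream, did not. The HCT116 summit is also within 1 kb of COASY, a coenzyme A synthesis gene that adjoins MLX.

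MXD1, the founding MXD repressor, induced as cells differentiate, had strong regions in both lines just upstream of its start on chromosome 2. The HCT116 region (69911457 to 69914625) was 3169 bp wide with 82 fragments over a background of 7.46 and a fold of 9.81. The SW480 region (69912254 to 69914537) was 2284 bp wide with 111 fragments over 25.1 and a fold of 4.29. Both summits sat in nearly the same place, 652 bp upstream of the start in HCT116 and 688 bp in SW480, and neither region reached the 300-base promoter window. A weak HCT116 region inside the gene had 15 fragments and a fold of 3.17.

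MXD3, the family member expressed in proliferating cells, had the strongest region of the network in HCT116. That region on chromosome 5 (177311218 to 177313605) had 100 fragments over a background of 5.51, a fold of 15.5 and, as −log10 q, 82.3, rank 114 of 22303. In SW480 the region (177312054 to 177312915) had 94 fragments over 18.2, a fold of 4.96 and, as −log10 q, 31.3, rank 201 of 12874. The summits were 593 bp and 603 bp downstream of the start, and the HCT116 region covered the whole promoter window shown above, the SW480 region 213 of its 300 bases.

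A second HCT116 region of MXD3 inside the gene had 32 fragments and a fold of 4.48. The 3 coding genes nearest to MXD3 in the log2 pileup of both lines, by straight-line distance over 2 values, were RPS14, HNRNPA3 and OLA1, with 102, 98 and 97 fragments in HCT116 and 94 each in SW480. MXD4, a further repressor of this family, carried no region in either line. The nearest summits were 5422 bp away in HCT116, at the genes POLN and HAUS3, and 206658 bp away in SW480.

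The strongest regions of the 7 genes were spread widely by −log10 q in each list. In HCT116 MXD3 ranked 114, MXD1 414, MGA 1887, MAX 3082, MLX 3328, MNT 3725 and MYC 12633 of 22303 regions. In SW480 MXD1 ranked 196, MXD3 201, MGA 292, MYC 384, MNT 1778, MAX 3734 and MLX 5890 of 12874. The order of pileups was MXD3, MXD1, MAX, MGA, MLX, MNT and MYC in HCT116 and MYC, MXD1, MXD3, MGA, MNT, MLX and MAX in SW480. In HCT116 the counting intervals of MAX (32.8 to 60.2), MGA, MLX, MNT and MYC (20.2 to 42.8) overlapped one another. Those of MXD3 (81.4 to 122) and MXD1 (65.2 to 102) overlapped each other and lay above the rest. In SW480 the interval of MYC (125 to 174) lies above those of MXD3 (76.0 to 115) and MGA (45.8 to 77.2) and overlaps that of MXD1 (91.3 to 134). Each pair of neighbours in that SW480 order had overlapping intervals.

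**Figure D2:**
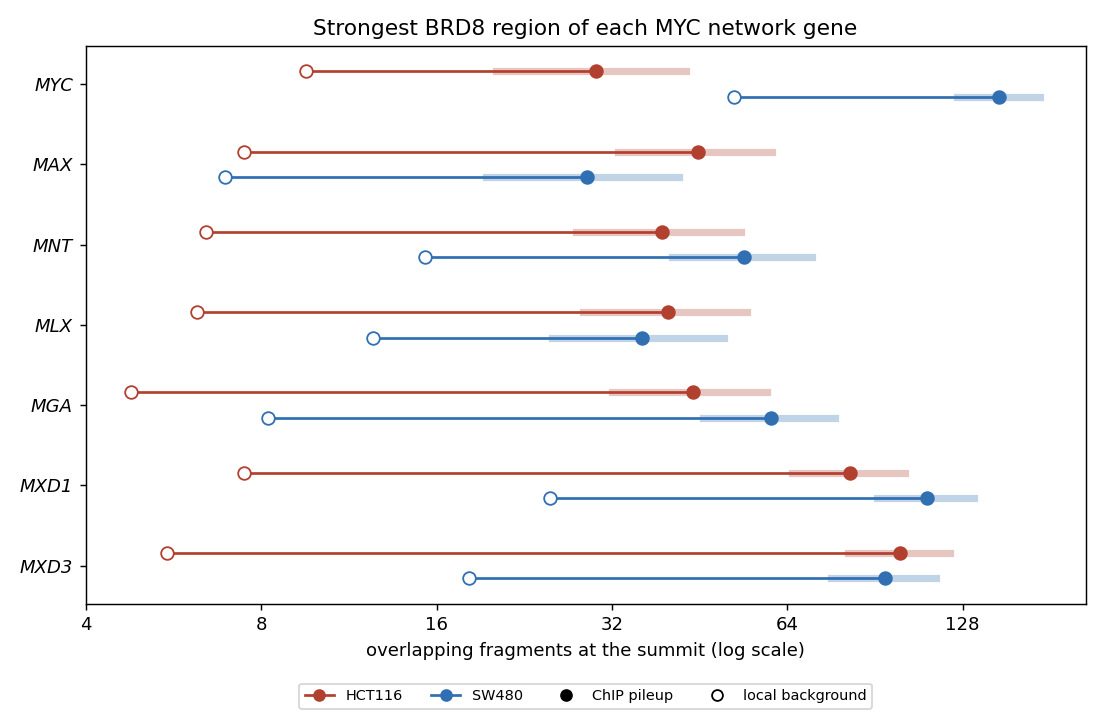
Summit pileup (filled) and local background (open) of the strongest region by −log10 q of each gene in HCT116 and SW480, in fragments on a log scale; pale bars are exact 95% Poisson intervals of the pileup. At MYC both values are higher in SW480, while at MXD3 and MLX the pileups are close and the backgrounds differ.

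The strongest regions of the 7 genes were set against each other as HCT116 to SW480 ratios. The pileup ratio was 0.203 at MYC (exact 95% counting interval 0.132 to 0.302). It was 0.722 at MNT, 0.733 at MGA and 0.739 at MXD1 (0.548 to 0.992). At MXD3 it was 1.06, at MLX 1.11 and at MAX 1.55. The intervals of MNT (0.466 to 1.11), MGA (0.485 to 1.10), MXD3, MLX and MAX included 1. A ratio of 1 was not the usual value, since the median over all genes with a region in both lines was 1.12. The intervals of MYC, MNT, MGA and MXD1 lay below that median, and those of MXD3, MLX and MAX included it. The pileups are maxima over a region and were not scaled to library depth. The MGA ratios compare different sites, since its strongest regions did not overlap and their summits lay 39316 bp apart.

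The MYC ratio was the lowest of all 5335 protein-coding genes with a region in both lines and a recovered pileup. Their median pileup ratio was 1.12, with 5% of genes below 0.567, and the median over the 7 members was 0.739. The members' median was 0.901 with only regions that overlap between the lines, which leaves MGA out. The background ratio was 0.185 at MYC, rank 27 from the lowest of 5335, and 0.297 at MXD1 and 0.304 at MXD3. The background ratio ran up to 1.08 at MAX. Its median was 0.420 over the members and 0.619 over all shared genes. With only overlapping regions the members' median was 0.362.

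The fold ratio was above 1 at all 7 members, as at 89.0% of all shared genes, so this direction was the usual one of these lists. It ranged from 1.04 at MYC and 1.18 at MGA to 2.28 at MXD1 and 3.13 at MXD3. The near-equal folds at MYC thus made a low ratio for these lists, rank 698 from the lowest of 5335. The median fold ratio was 1.596 over the members and 1.70 over all shared genes. With only regions that overlap between the lines, which leaves MGA out, the members' median was 1.83. So the side of 1.70 on which the members fell depended on the pairing. The median over all shared genes was not recomputed with that pairing. MYC thus had the lowest pileup ratio of the members, the lowest background ratio and the lowest fold ratio.

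**Figure D3:**
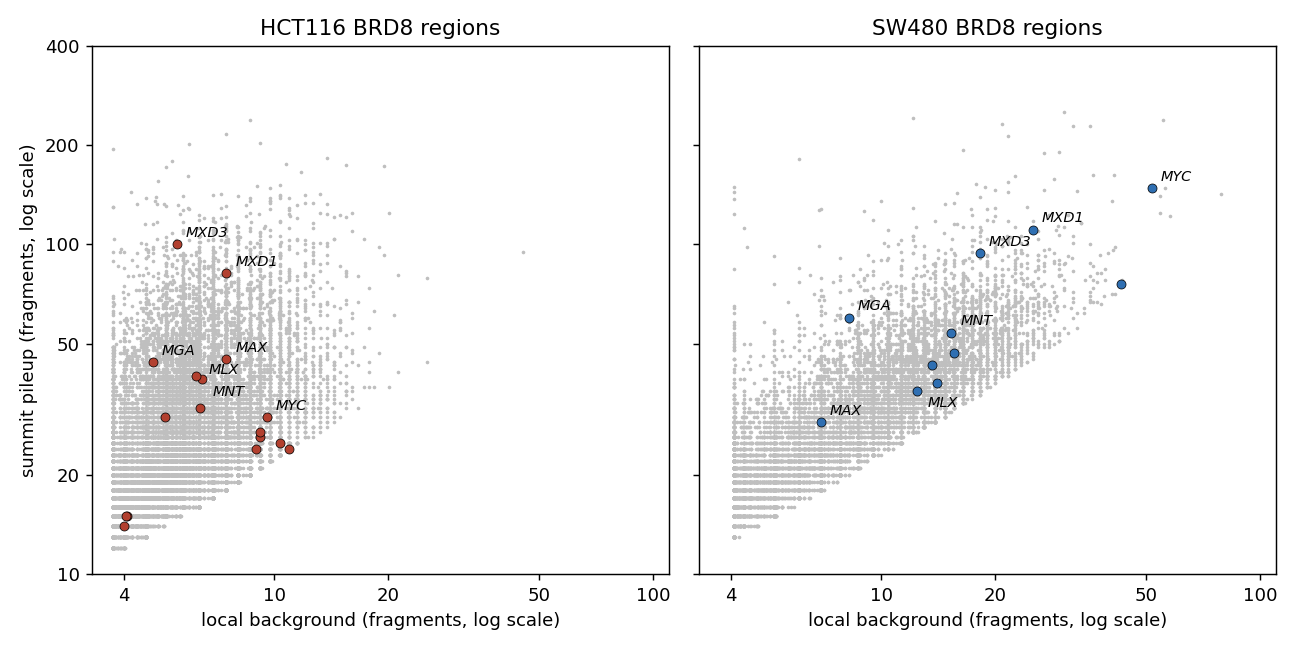
Summit pileup against local background, in fragments on log scales, for all regions with recovered values (grey; 1 HCT116 region lies outside the axes) and for regions of the network genes (coloured, the strongest of each gene named), HCT116 at left and SW480 at right. The lower edge of each cloud is the calling threshold, which rises with background, and the 2 SW480 regions of MYC lie near the right end.

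The overlap of network gene regions between the lines was set beside that of the whole lists. Of the 17 HCT116 regions 8 overlapped a SW480 region, which is 47.1% against 24.2% of the whole HCT116 list. With as many HCT116 regions as SW480 has, taken by −log10 q, it was 7 of 9 (77.8%). The overlap of the whole list cut in that way was not computed, so 24.2% is not its counterpart. Of the 11 SW480 regions 10 overlapped a HCT116 region, 90.9% against 49.1% of the SW480 list. The 1 SW480 region without an overlap was that at the MGA start. All member regions lie at genes listed in both lines, unlike the regions of the whole lists. The whole-list shares are therefore not a like reference. No test of these shares was made, because regions of 1 library are not replicates and several lie in the same gene.

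The gene-end regions of the members lay at the 5′ end, except for the pair at the 3′ end of MYC. For the 9 members with an annotated start in the promoter table, a summit lay within 1 kb of a start at 6 in HCT116 (MAX, MGA, MLX, MNT, MXD1 and MXD3), beside 47.7% of coding genes in that table. In SW480 it did so at 5, the same genes without MAX, beside 25.1%. Just inside the 1 kb margin was the HCT116 summit at MNT, 857 bp outside the gene. Just outside it were HCT116 summits 1279 bp from MXD3, with a fold of 4.04, and 1451 bp from MYC, with a fold of 2.81.

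Other genes tied to the network were counted by the gene-end rule, against 44.0% of coding genes in HCT116 and 22.1% in SW480. Their lists were chosen with earlier results of these data known, so the shares are not independent of the data. Of the 3 network genes outside the list of 10, MLXIP and MLXIPL, which encode MondoA and ChREBP, had a region in HCT116 with folds of 8.10 and 3.97, and none had one in SW480. MXI1, a MAX partner of the MXD group, just missed the rule, with a HCT116 summit 1013 bp from its end. It was named after its values were seen. Its strongest HCT116 region, with a fold of 7.04, lay inside the gene, 100 bp downstream of an internal start, and a SW480 region with a fold of 3.97 overlapped it.

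Of 9 other basic helix-loop-helix leucine zipper genes, 4 had a gene-end region in HCT116 and 2 in SW480, shares near those of all genes. SREBF1, a regulator of lipid synthesis, had folds of 8.47 and 3.21. USF1 had 5.01 in HCT116 at its 3′ end, and 4.17 at a summit 203 bp upstream of a start. TFAP4 met the gene-end rule in SW480 with 3.50. TFAP4 was not free of HCT116 signal: a HCT116 region with a fold of 23.3 overlapped that site, its summit 1519 bp inside the gene. Among the partners of MGA in its Polycomb complex, 7 of 10 had a gene-end region in HCT116 and 4 in SW480, beside 44.0% and 22.1% of coding genes. WDR5, a histone-binding scaffold, had folds of 7.03 and 3.28, and E2F6, a repressor of the E2F family, 6.06 and 3.92. CBX3, a heterochromatin protein, met the rule in SW480 with 3.64, and a wide HCT116 region with a fold of 10.5, whose summit fell beyond the 1 kb margin, overlapped it.

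Genes of the SIN3 corepressor that MXD proteins and MNT recruit had gene-end regions at 14 of 15 in HCT116 and 7 in SW480. All coding genes had them at 44.0% and 22.1%. ARID4A, a subunit of the complex, had folds of 20.1 and 5.01, and ING1, a histone reader, 6.70 and 2.69, while SUDS3 met the rule in SW480 with 3.46, and no HCT116 region overlapped that one. Genes for proteins that bind MYC at chromatin had gene-end regions at 9 of 11 in HCT116 and 5 in SW480, beside the same shares. HCFC1, a chromatin-bound host cell factor, had folds of 7.59 and 4.04, and WDR5, which is in this list too, was next. Genes that control MYC protein stability had gene-end regions at 12 of 14 in HCT116 and 7 of 14 in SW480, beside 44.0% and 22.1% of coding genes. AURKA, a mitotic kinase that protects MYC family proteins from degradation, had 14.4 and 5.37, and PLK1, another mitotic kinase, 12.4 and 4.93.

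Long-studied MYC target genes had gene-end regions at 18 of 20 in HCT116 and 13 in SW480, beside 44.0% and 22.1% of all coding genes. The median of their folds was 8.03 in HCT116 (4.87 over all coding genes with such a region) and 5.44 in SW480 (3.40). Their folds varied widely, from 3.67 at CDKN2B to 24.9 in HCT116 and from 2.30 at LDHA to 8.39 at EIF4A1 in SW480. PPAT, the first enzyme of purine synthesis, had 24.9 and 5.98, and NME1, a nucleoside diphosphate kinase, 20.04 and 5.44. Some summits named in these lists also lay inside or within 1 kb of another coding gene. In both lines these were PAICS at PPAT, NME1-NME2 at NME1, CSTF1 at AURKA and CARS2 at ING1. In HCT116 they were also TMEM187 at HCFC1 and TSTD1 at USF1. These lists are described by counts only, their shares were not matched for gene length, and nothing particular to the MYC network was tested.

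**Figure D4:**
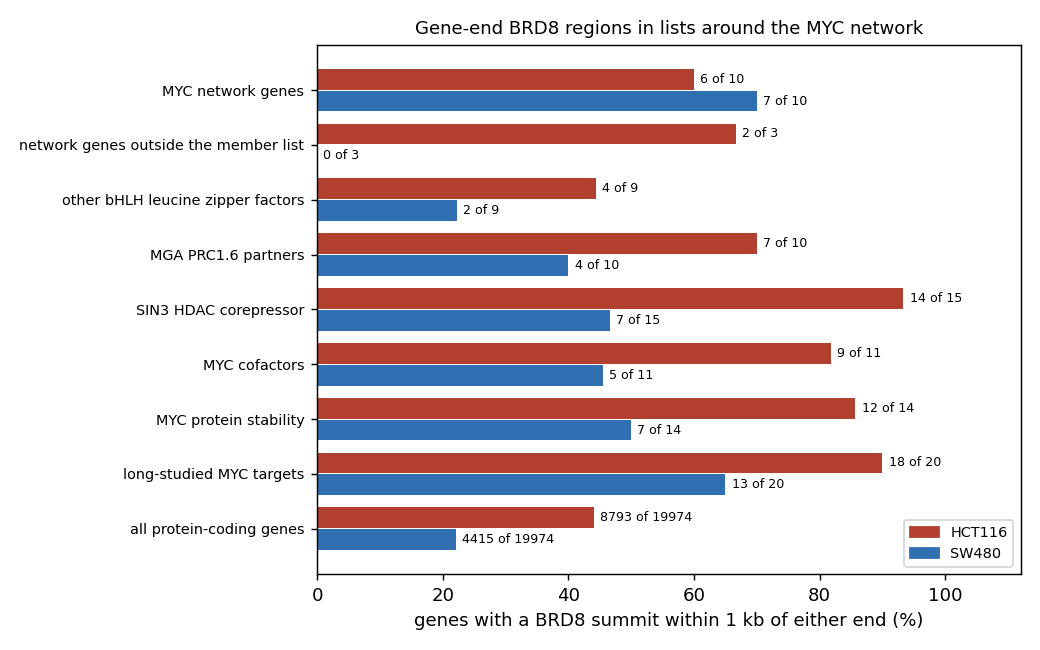
Share of genes with a BRD8 summit within 1 kb of either end in the 10 network genes, in 7 lists around them and in all protein-coding genes, HCT116 bar above SW480 bar, with counts printed. The network genes are at 6 of 10 and 7 of 10, and all protein-coding genes at 8793 and 4415 of 19974.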

How the data were processed

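BRD8 ChIP-seq peak lists of HCT116 and SW480 were analysed, 1 ChIP library each. Per the submitters' processing notes, reads went through Trimmomatic 0.33, Bowtie2 2.4.1, MACS2 and deepTools on GRCh38; for read filters and duplicates, the sources used here give no detail. Peaks were called per library. The deposited columns are the fold (a ratio to local background, 1 added to each side), the −log10 p-value and −log10 q-value at the summit, a score (10 times the −log10 q) and the summit offset, a value in bp that the authors' caller gave. Read totals are unknown, and intervals cover counting error only.

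Pileup and background were solved from fold and p by trying whole pileups to a limit of 2999 and accepting a p within a relative 0.0001, for 99.99% of HCT116 and 99.98% of SW480 regions; the solver was tested on simulated data. Chromosome Y and other contigs (9 and 72 regions) were left out. Genes and promoter sequences came from RefSeq tables of GRCh38.p14. MYC has no entry in the promoter table used. A region's overlap needed 1 bp. The strongest region of a gene was that of highest −log10 q. Ratios carry exact conditional intervals at 95%, pileups exact Poisson intervals. Named beside the members were, per list, the 2 genes of highest HCT116 gene-end fold and up to 2 found in SW480 alone, and the 3 genes nearest to the strongest member. Members and lists were chosen with earlier results of these data known. Python 3.11.15, numpy 2.4.6, pandas 2.3.3 and scipy 1.17.1 were used.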

Additional observations from a re-analysis of the deposited data

How the results depend on the processing

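No paired analysis was possible because each line has 1 ChIP library, and no replicate could be left out. Alternatives were a −log10 q of at least 2 or 5, equal peak numbers, margins of 0.5 and 5 kb, any 1 bp of the region in place of the summit, a larger overlap between regions, other choices of strongest region and scaling to the lowest background. Of 40 recomputed counts and median ratios, 36 stayed within 1.5 times the count or within the relative width of a pileup's counting interval. With a margin of 0.5 kb, gene-end members came to 2 in HCT116 and 4 in SW480. At a −log10 q of at least 5, overlapping regions came to 5 of 8 in HCT116 and 6 of 8 in SW480. Both alternatives admit fewer regions by construction. With summits within 1 kb of an annotated start, an alternative chosen after seeing the data, the counts were 6 and 5. With equal peak numbers the overlap was 7 of 9 HCT116 and 9 of 11 SW480 regions, counts near the main ones out of fewer HCT116 regions. Whole-list overlap shares were not computed at a −log10 q of at least 5 or with equal peak numbers. Ratios of single members were judged by that width too, since background and fold ratios have none of their own, and 53 of 53 stayed within it. That count shows little. The other choices of strongest region gave the same value at every member that kept a pair, and scaling multiplied all ratios by the same factor. Depth limits what is listed: a summit needs at least 12 fragments in HCT116 and 13 in SW480, and more where background is high.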
